A study of Arabidopsis thaliana with 24 samples.

Results

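Wild-type (WT) Arabidopsis thaliana rosette leaves dehydrated for 4 h were compared with rosette leaves dehydrated for 2 h, to ask what changed in messenger RNA as drying went on. The groups were chosen by the titles of the samples, 4 libraries each, so 8 of the 24 libraries of the series enter the comparison directly. All plants were harvested at an age of 24 days, of which 12 were spent on Murashige and Skoog plates and 12 in soil, and the WT plants carried no transgene or mutation that the labels name. The other libraries are WT at 0 h and grf6 grf8, a mutant in a pair of 14-3-3 genes, at 0 h, 2 h and 4 h, with 4 libraries in each group. The labels do not say that the libraries of a group came from separate plants, so p-values measure the spread between these samples. No plants kept watered until 2 h or 4 h are in the groups, so dehydration and time of day cannot be told apart.

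Drying leaves accumulate abscisic acid (ABA), which binds PYR/PYL receptors, and the occupied receptors inhibit clade A PP2C phosphatases. SnRK2 kinases are thereby freed and phosphorylate bZIP factors of the ABF and ABI5 family, which bind ABA-responsive elements with an ACGTG core. Their known targets include late embryogenesis abundant (LEA) proteins, small hydrophilic proteins that accumulate in drying seeds and leaves. Jasmonate, a lipid-derived hormone, is made early in many stresses, and cuticular wax limits water loss from the leaf surface.

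Of 18841 genes tested, 484 rose (2.57%) and 400 fell (2.12%) from 2 h to 4 h at an adjusted p under 0.05 (edgeR quasi-likelihood test fitted to all 24 libraries), together 4.69%. Of these, 260 rose and 150 fell at least 2-fold, and 82 rose and 19 fell at least 4-fold. The genes that rose included 12 of 27 LEA genes, 8 of 23 other dehydration markers, and P5CS1 of proline synthesis. Those that fell included AOS and JAR1 of jasmonate synthesis, 3 of 31 wax and cutin genes, a pair of gibberellin receptors and the chaperones HSP70 and HSP90.1. The 4 h libraries lay wholly above the 2 h libraries for 319 of the 484, and wholly below for 316 of the 400. Over all genes tested, 670 lay wholly above (3.56%) and 679 wholly below (3.6%). The 12 highest and 12 lowest genes named below for their change were chosen among genes with groups apart, so the choice fixed their separation. The highest were AT3G17520, AT3G02480, AT3G53040, LEA18, AT2G02700, LTP4, HSFA6B, AT5G50360, AT2G37870, SUS3, LEA7 and RD29B. The lowest were AT5G62360, AT5G62280, CLH1, AT1G52000, CYP94B1, HSP70, EP3, AT5G10410, AT1G21050, AT5G55620, RABA6b and RLP19. The median log2 fold change of all genes tested was 0.03.

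Replicate 4 of both groups stands apart. The summed level of 29 cell cycle genes, which serve DNA replication and division, was 34.3 to 61.6 CPM (counts per M counts, where M is 1e+06, on TMM-scaled totals) in replicates 1 to 3 at 2 h and 90.9 CPM in replicate 4, and 35.5 to 46.7 CPM in replicates 1 to 3 at 4 h and 182 CPM in replicate 4. In replicate 4 at 4 h, the summed root markers reached 113 CPM, against 6.54 to 9.40 CPM in the others, of which PYK10, a beta-glucosidase known from roots, gave 93.5 CPM and SCR and SHR gave 12.0 and 7.50 CPM, with RHD6, CASP1 and CASP2 at 0 in all 4 libraries. The summed shoot meristem markers there reached 28.9 CPM, against 0.0644 to 0.338 CPM, with CUC3, CLV3 and WUS at 0 in all 4 libraries. Its 5 leaf markers summed to 3082 CPM, against 8966 to 10626 CPM. Replicate 4 at 2 h differed from this. Its leaf sum was the highest of its group, 13807 CPM against 5598 to 11986 CPM, with replicate 3 lowest. Its root sum was 29.1 CPM, against 11.4 to 26.6 CPM, and its meristem sum 1.46 CPM, against 0.0562 to 0.873 CPM. The part of these differences in the results was not tested. Calls of the lists that differ without both replicate 4 libraries are given beside them, and the genes named there were chosen after their values were seen. Without both, 982 genes rose (5.21%) and 1088 fell (5.77%) of 18843 tested, together 11%, and 435 of the 484 and 358 of the 400 were called in the same direction there, with no reversed sign. With only the 8 compared libraries in the fit, 19 genes rose and 18 fell, and without replicate 4 of 4 h alone 1625 rose and 1830 fell. In bulk leaves, fewer cells of a type and less RNA per cell cannot be told apart.

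**Figure D1:**
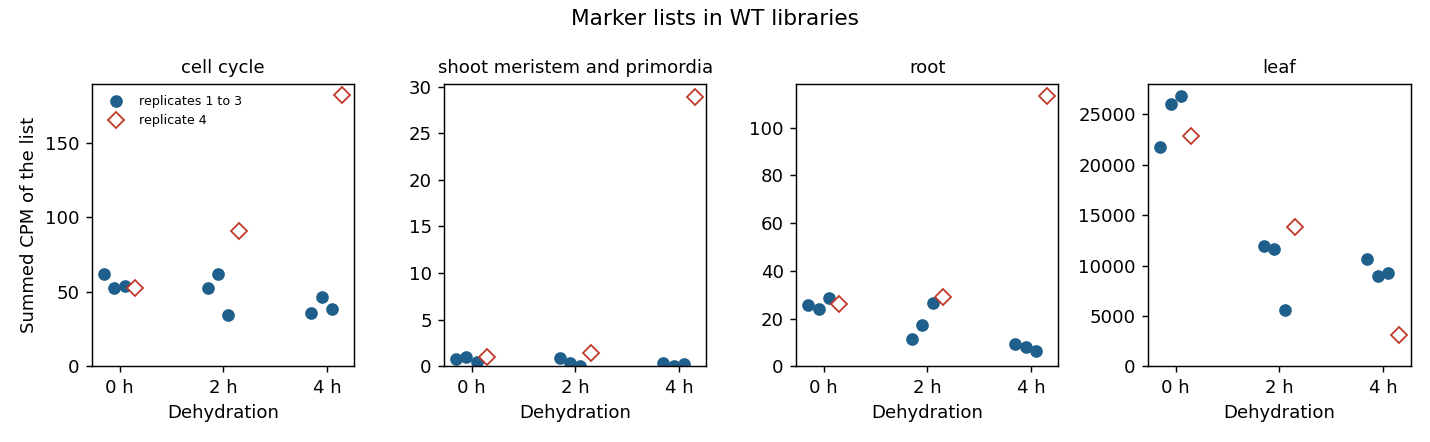
Summed CPM of 4 marker lists (y axis, from 0) in each WT library at 0 h, 2 h and 4 h of dehydration (x axis), with replicate 4 as open diamonds. Cell cycle, meristem and root sums are highest in replicate 4 at 4 h, at 182, 28.9 and 113 CPM, and the leaf sum is lowest there, at 3082 CPM.

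The promoters of 4 genes that rose and 2 that fell are shown because ABA-responsive elements are known in LEA promoters. Each is the 250 bases before the annotated gene start, from RefSeq's TAIR10.1 genome, 5′ to 3′ on the gene's strand, with the motifs searched on both strands in capitals. These were ACGTG, the core of the ABA-responsive element, CCGAC as the core of the dehydration-responsive element, and the evening element AAATATCT. The windows lie at chr3:6000448-6000697 (minus strand), chr3:511970-512219 (plus strand), chr1:19619474-19619723 (plus strand), chr5:21236771-21237020 (plus strand), chr5:17099596-17099845 (minus strand) and chr3:20523099-20523348 (minus strand). LTI65 is the RefSeq symbol of RD29B.
AT3G17520: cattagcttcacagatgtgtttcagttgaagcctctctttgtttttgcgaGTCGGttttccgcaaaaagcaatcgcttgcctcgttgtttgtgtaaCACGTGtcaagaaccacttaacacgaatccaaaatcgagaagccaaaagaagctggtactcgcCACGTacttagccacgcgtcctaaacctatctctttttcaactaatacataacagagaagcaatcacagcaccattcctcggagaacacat
AT3G02480: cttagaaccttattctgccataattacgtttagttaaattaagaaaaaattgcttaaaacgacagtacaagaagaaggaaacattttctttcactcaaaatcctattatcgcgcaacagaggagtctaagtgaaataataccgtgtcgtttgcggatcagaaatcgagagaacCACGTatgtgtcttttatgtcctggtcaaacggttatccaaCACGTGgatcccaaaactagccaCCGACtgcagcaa
LEA7: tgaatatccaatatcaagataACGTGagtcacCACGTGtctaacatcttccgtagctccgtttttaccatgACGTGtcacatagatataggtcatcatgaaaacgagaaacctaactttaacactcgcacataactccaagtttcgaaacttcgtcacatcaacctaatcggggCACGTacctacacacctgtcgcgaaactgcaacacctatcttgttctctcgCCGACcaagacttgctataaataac
LTI65: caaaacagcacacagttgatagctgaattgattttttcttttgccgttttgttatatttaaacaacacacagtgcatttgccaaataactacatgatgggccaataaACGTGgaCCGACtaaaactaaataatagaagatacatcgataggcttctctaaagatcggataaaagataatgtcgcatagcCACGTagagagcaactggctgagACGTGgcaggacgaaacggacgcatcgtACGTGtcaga
AOS: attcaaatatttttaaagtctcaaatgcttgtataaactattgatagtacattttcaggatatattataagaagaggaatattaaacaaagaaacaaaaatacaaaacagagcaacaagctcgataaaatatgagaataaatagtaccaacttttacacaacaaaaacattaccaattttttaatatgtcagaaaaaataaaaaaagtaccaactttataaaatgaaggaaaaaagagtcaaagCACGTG
CER10: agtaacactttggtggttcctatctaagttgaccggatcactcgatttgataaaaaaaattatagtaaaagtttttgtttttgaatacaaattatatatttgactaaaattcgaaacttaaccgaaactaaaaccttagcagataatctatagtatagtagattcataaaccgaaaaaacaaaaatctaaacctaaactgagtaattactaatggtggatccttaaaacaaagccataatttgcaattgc
The ACGTG core, which can overlap itself as CACGTG and is then met once per strand, occurred 3 times before AT3G17520, 3 times before AT3G02480, 5 times before LEA7 and 4 times before LTI65. It occurred 2 times before AOS, as 1 overlapping pair, and 0 times before CER10. Of 18485 windows of tested genes 23.9% held ACGTG, against 34.8% of the 480 windows of genes that rose, 39.1% of the 256 of those that rose at least 2-fold and 78 of the 388 of genes that fell. All 12 windows of the LEA genes that rose held it, as did 9 of 15 windows of LEA genes tested and not called. CCGAC was in 13.2% of all windows, 17.7% of those of genes that rose, 15.2% of those that fell, 9 of the 12 and 4 of the 15. AAATATCT was in 5.06% of all windows, 5.42% of those of genes that rose and 6.96% of those that fell. These matches describe letters in a window and show no binding.

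LEA proteins had more called members than any other of the 48 lists. Of 27 tested members 12 rose and 0 fell, against 2.57% of all genes that rose. Of the 27, 24 had a log2 fold change above 0, as did 10065 of all 18841 genes tested. Their median log2 fold change was 1.66, against 0.03 for all genes, and without both replicate 4 libraries it was 1.41, with 12 that rose, 11 of them the same genes. AT3G17520, a LEA family gene with 0.0783 CPM on average at 0 h, was at 0.360, 0.309, 0.899 and 0.146 CPM at 2 h and 21.3, 29.1, 25.7 and 19.9 CPM at 4 h in replicates 1 to 4. All 4 h libraries lay far above all 2 h libraries, replicate 4 included. The log2 fold change was 5.81 ± 0.47 (SE), the highest among the genes named for their change (edgeR adjusted p = 8e-07). AT3G02480, another LEA family gene, was at 6.93, 18.1, 21.5 and 2.68 CPM at 2 h and 251, 261, 340.5 and 71.2 CPM at 4 h. The groups did not overlap, and replicate 4 was the lowest library of each. Its log2 fold change was 4.23 ± 0.52 (SE) with an edgeR adjusted p of 0.00017.

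LEA7 was at 40.1, 46.8, 72.7 and 18.0 CPM at 2 h and 241, 316, 479.5 and 141 CPM at 4 h, without overlap and again with replicate 4 lowest, and its log2 fold change was 2.73 ± 0.34 (SE) (edgeR adjusted p = 0.00017). LEA7 overlaps a gene on the other strand over 297 bases, and the library kit does not mark strand, so reads there cannot be assigned. AT3G53040, also of the family, rose by a log2 fold change of 4.08 ± 0.51 (SE), LEA18 by 3.68 ± 0.44 (SE), AT3G15670 by 2.84 ± 0.44 (SE) and LEA4-5 by 2.2 ± 0.38 (SE), and the groups of all 4 genes were apart. RAB18, a dehydrin that marks ABA responses, was at 104, 85.6, 66.4 and 22.6 CPM at 2 h and 340.1, 540.1, 498 and 166 CPM at 4 h. Its 4 h libraries were all above its 2 h libraries, and its log2 fold change was 2.47 ± 0.42 (SE) (edgeR adjusted p = 0.0019). AT2G42560 rose by 3.06 ± 0.69 log2 units (SE) with groups that overlapped, since replicate 4 at 4 h, at 20.9 CPM, lay below replicate 3 at 2 h, at 22.8 CPM. ECP63, XERO1 and DI21 were the other members that rose, and XERO1 stayed at or below 1.61 CPM in every library. Without both replicate 4 libraries DI21 had an adjusted p of 0.051, and AT5G44310 was called in its place. The 15 members that were not called included COR15A, COR15B, COR47 and ERD10, known from cold as well as drying and chosen here after their values were seen, with log2 fold changes of -0.08, -0.76, 0.32 and 0.02.

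**Figure D2:**
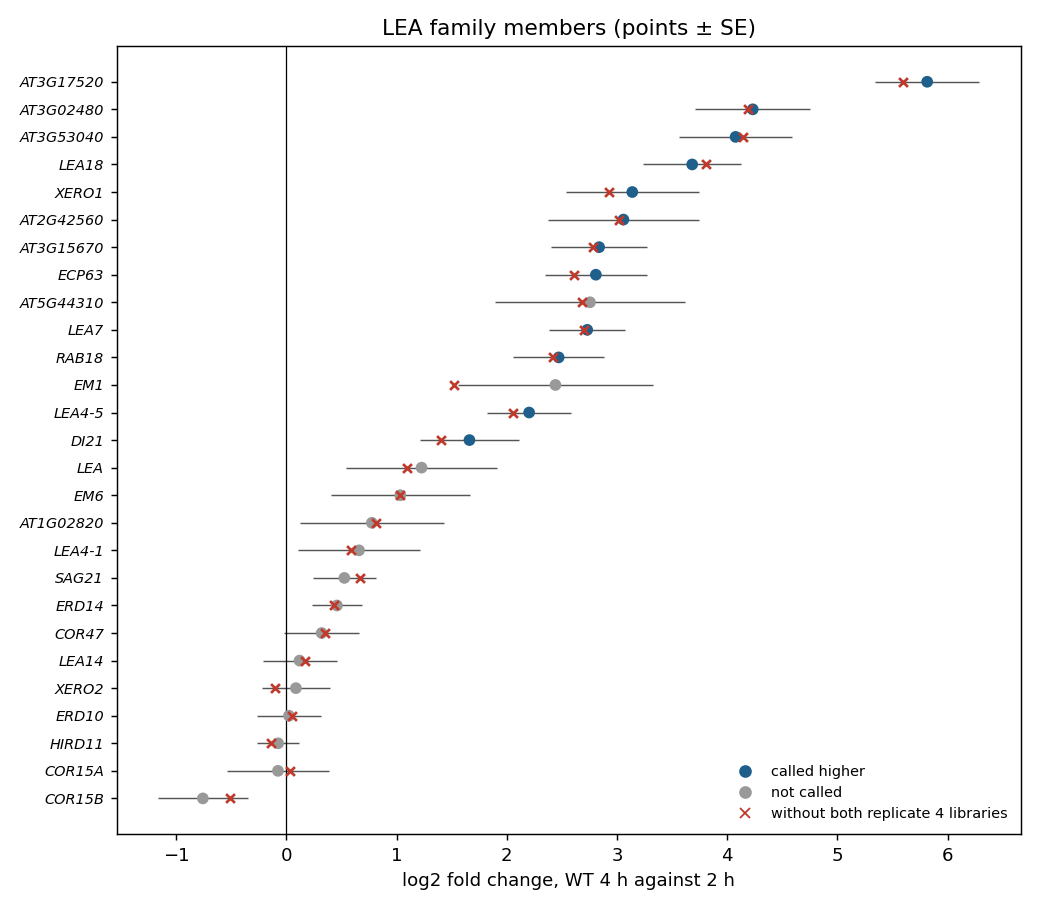
Log2 fold change of WT 4 h against 2 h (x axis) for the 27 tested LEA genes (y axis), with bars of 1 SE, called members in blue, others in grey, and crosses for the fit without both replicate 4 libraries. The 12 called members lie from 1.66 to 5.81.

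Among 23 other dehydration markers, 8 rose and 0 fell, with a median log2 fold change of 0.69, and 2.57% of all genes rose. In the fit that leaves out both replicate 4 libraries, where 5.21% of all genes rose, 11 did, when RD20, AFP3 and TMAC2 were added. RD29B, a marker of drying and ABA, was at 87.2, 84.1, 50.6 and 15.6 CPM at 2 h and 397, 523, 505 and 139.9 CPM at 4 h. The groups did not overlap, although replicate 4 at 4 h was far below the other 4 h libraries, and the log2 fold change was 2.72 ± 0.54 (SE) (edgeR adjusted p = 0.0057). LTP4, a lipid transfer protein, was at 5.55, 14.3, 11.5 and 5.21 CPM at 2 h and 97.6, 105, 67.5 and 121 CPM at 4 h, without overlap, and here replicate 4 at 4 h was the highest library. Its log2 fold change was 3.42 ± 0.44 (SE), with an edgeR adjusted p of 0.00019, and its relative LTP3 rose by 2.22 ± 0.49 (SE). TSPO, a membrane protein that ABA induces, rose by 2.38 ± 0.45 log2 units (SE), and MAPKKK17, an ABA-induced kinase, by 2.12 ± 0.46 log2 units (SE). AFP2, which binds ABI5, rose by 0.84 ± 0.22 log2 units (SE), ADH1, alcohol dehydrogenase, by 1.58 ± 0.38 log2 units (SE), and MAPKKK18, a relative of MAPKKK17, by 1.43 ± 0.37 log2 units (SE).

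**Figure D3:**
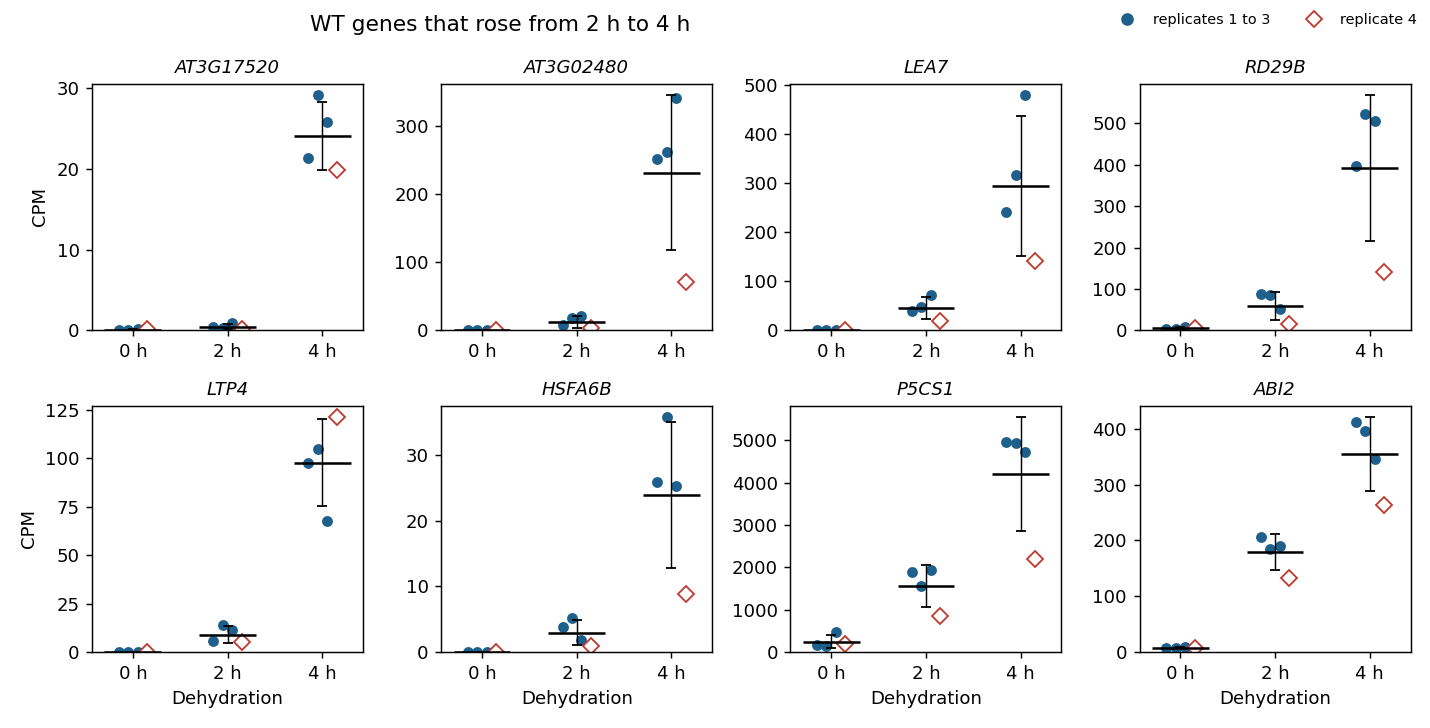
CPM (y axis, from 0) of 8 genes that rose from 2 h to 4 h, in WT libraries at 0 h, 2 h and 4 h of dehydration (x axis), with lines and bars for mean ± SD of 4 libraries and open diamonds for replicate 4. In each panel the 4 libraries at 4 h lie above the 4 at 2 h.

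The 6 lists of the ABA pathway held 51 tested genes, of which 7 rose and 2 fell, 9 of 51 against 4.69% of all genes. Without both replicate 4 libraries 8 rose and 3 fell, 11 of 51 against 11% of all genes. Of 7 tested ABA synthesis genes, 10 of ABA breakdown, conjugation and transport, and 8 receptor genes, 0 were called in either direction with all libraries. Without both replicate 4 libraries the receptor gene PYL5 rose, at a log2 fold change of 1.07 (edgeR adjusted p = 0.018), and NRT1:2, an ABA importer, fell, at -0.56 (edgeR adjusted p = 0.041). Of 8 clade A PP2C genes 2 rose: ABI2, which was at 207, 184, 191 and 132 CPM at 2 h and 412, 395, 346 and 264 CPM at 4 h, and AHG1, known from seeds. All 4 h libraries of ABI2 were above all of its 2 h libraries, and its log2 fold change was 0.99 ± 0.18 (SE) (edgeR adjusted p = 0.0039). AHG1 was at 0.103, 0.258, 0.337 and 0.0974 CPM at 2 h and 2.08, 1.87, 1.99 and 1.63 CPM at 4 h, a low level at both times, and its groups did not overlap. Of 10 SnRK2 kinases, OST1, the main kinase of stomatal closure, rose by 0.91 ± 0.16 log2 units (SE), SNRK2.7 by 1.91 ± 0.42 log2 units (SE) and SNRK2.10 by 0.61 ± 0.15 log2 units (SE), while SNRK2.3 fell, at -0.49 ± 0.13 log2 units (SE). Of 8 ABF and ABI factors, ABF2 rose by 0.75 ± 0.22 log2 units (SE), ABI5 by 1.56 ± 0.39 log2 units (SE) and ABF1 fell, at -0.41 ± 0.11 log2 units (SE). The groups of ABF2 overlapped. ABI5 was at 7.81, 8.34, 6.52 and 8.96 CPM at 2 h and 14.0, 14.0, 15.9 and 49.2 CPM at 4 h, so that 1 library, replicate 4 at 4 h, held the highest value by far, and without both replicate 4 libraries its log2 fold change was 0.94 with an adjusted p of 0.083. ABF3 was called there instead, at 0.84 (edgeR adjusted p = 0.024), so that 2 rose and 1 fell in both fits. SNRK2.3 and ABF1 overlap genes on the other strand.

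Compatible solutes, small molecules that hold water in the cell, had called genes. P5CS1, the rate-limiting enzyme of proline synthesis, was at 1892, 1559.6, 1940.5 and 848 CPM at 2 h and 4961, 4934, 4718 and 2191 CPM at 4 h, among the most abundant mRNAs that rose. Its groups did not overlap, with replicate 4 lowest at both times, and its log2 fold change was 1.43 ± 0.41 (SE) (edgeR adjusted p = 0.047). ALDH12A1, which oxidises a product of proline breakdown, rose by 0.72 ± 0.13 log2 units (SE). These were the 2 called of 9 proline genes, where 2.57% of all genes rose. All 9 had a log2 fold change above 0, as did 10065 of all 18841 genes tested. RS5, a raffinose synthase, rose by 1.13 ± 0.22 log2 units (SE), and MIPS2, which makes inositol phosphate, by 1.37 ± 0.29 log2 units (SE), 2 of 8 in that list. In both lists 2 rose without both replicate 4 libraries too, where 5.21% of all genes rose. SUS3, a sucrose synthase that is in neither of these lists and was named for its change, was at 5.03, 9.06, 9.83 and 6.33 CPM at 2 h. At 4 h it was at 58.1, 43.3, 55.9 and 43.8 CPM. Its 4 h libraries all lay above its 2 h libraries, and its log2 fold change was 2.73 ± 0.35 (SE) (edgeR adjusted p = 0.00019).

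Other genes that rose belong to several roles, and the counts of their lists are to be read against the 2.57% of all genes that rose, or 5.21% without both replicate 4 libraries. HSFA6B, a heat shock factor that acts in ABA and drought responses, was at 3.90, 5.15, 1.85 and 0.925 CPM at 2 h and 25.8, 35.7, 25.3 and 8.78 CPM at 4 h, with a log2 fold change of 3.01 ± 0.47 (SE) (edgeR adjusted p = 0.00098). Its groups did not overlap. DREB2A, a factor that binds dehydration-responsive elements, rose by 1.34 ± 0.34 log2 units (SE) and was the 1 called of 13 CBF, DREB and ZAT factors. The nitrate transporters NRT1.5, which loads the xylem, and NRT1.8, which unloads it, rose by 1.83 ± 0.46 log2 units (SE) and 3.16 ± 0.65 log2 units (SE), 2 of 13, to which GLU1, a glutamate synthase, was added without both replicate 4 libraries. ATG8H, an autophagy protein, rose by 1.35 ± 0.32 log2 units (SE), the 1 called of 19, and ATG8E and ATG13 also rose without both replicate 4 libraries. The vacuolar aquaporin TIP2;3 rose by 3.37 ± 0.69 log2 units (SE), the 1 called of 24. RVE2, a clock-related factor, rose by 1.09 ± 0.29 log2 units (SE), 1 of 11 morning-phased clock genes, and RVE1 was added without both replicate 4 libraries. Replicate 4 of RVE2 was at 4.68 CPM at 4 h, within the range of its 2 h libraries, 4.64 to 7.13 CPM. The wall genes EXPA1, an expansin, and TCH4, of the xyloglucan endotransglucosylase/hydrolase family, rose by 1.38 ± 0.31 log2 units (SE) and 1.19 ± 0.33 log2 units (SE), 2 of 33. APL, a phloem identity factor and the 1 called of 11 vascular markers, had an adjusted p of 0.066 without both replicate 4 libraries. AT2G02700, AT5G50360 and AT2G37870 also met the rule for the largest rises, at 3.50 ± 0.87 log2 units (SE), 2.98 ± 0.36 log2 units (SE) and 2.92 ± 0.38 log2 units (SE). Among abundant genes, NSP5, a nitrile specifier protein, rose by 1.4 ± 0.39 log2 units (SE), BGAL1, a beta-galactosidase, by 1.62 ± 0.45 log2 units (SE), UBC32, a ubiquitin-conjugating enzyme, by 1.2 ± 0.32 log2 units (SE) and AT4G23670 by 1.11 ± 0.23 log2 units (SE). The groups of DREB2A, ATG8H, RVE2, TCH4, NSP5, BGAL1 and UBC32 overlapped.

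AOS and JAR1 of jasmonate synthesis fell. Of 14 tested members these 2 fell and 0 rose, against 2.12% of all genes that fell, and the median log2 fold change was -0.88, or -1.06 without both replicate 4 libraries. AOS, which commits fatty acid hydroperoxides to jasmonate synthesis, was at 974, 1346, 1378 and 678 CPM at 2 h and 358, 408, 256 and 211 CPM at 4 h. Every 4 h library was below every 2 h library, and the log2 fold change was -1.83 ± 0.32 (SE) (edgeR adjusted p = 0.0028). JAR1, which joins jasmonate to isoleucine, was at 359, 177, 227 and 137 CPM at 2 h and 87.1, 151, 86.1 and 127 CPM at 4 h, with 1 overlap, replicate 2 at 4 h against replicate 4 at 2 h. Its log2 fold change was -1.0 ± 0.26 (SE) (edgeR adjusted p = 0.032). CYP94B1, which oxidises and so inactivates the jasmonate-isoleucine conjugate, was at 0.384 CPM on average at 0 h. It was at 49.3, 47.5, 55.3 and 25.7 CPM at 2 h and 4.62, 15.6, 6.01 and 8.38 CPM at 4 h, without overlap, and fell, at -2.36 ± 0.59 log2 units (SE). JAZ7, a repressor of jasmonate signalling, rose by 1.75 ± 0.49 log2 units (SE) with groups that overlapped. CYP94B1 and JAZ7 were the 2 called of 21 signalling and inactivation genes, where 2.57% of all genes rose and 2.12% fell. JAZ3, another repressor, also rose without both replicate 4 libraries.

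**Figure D4:**
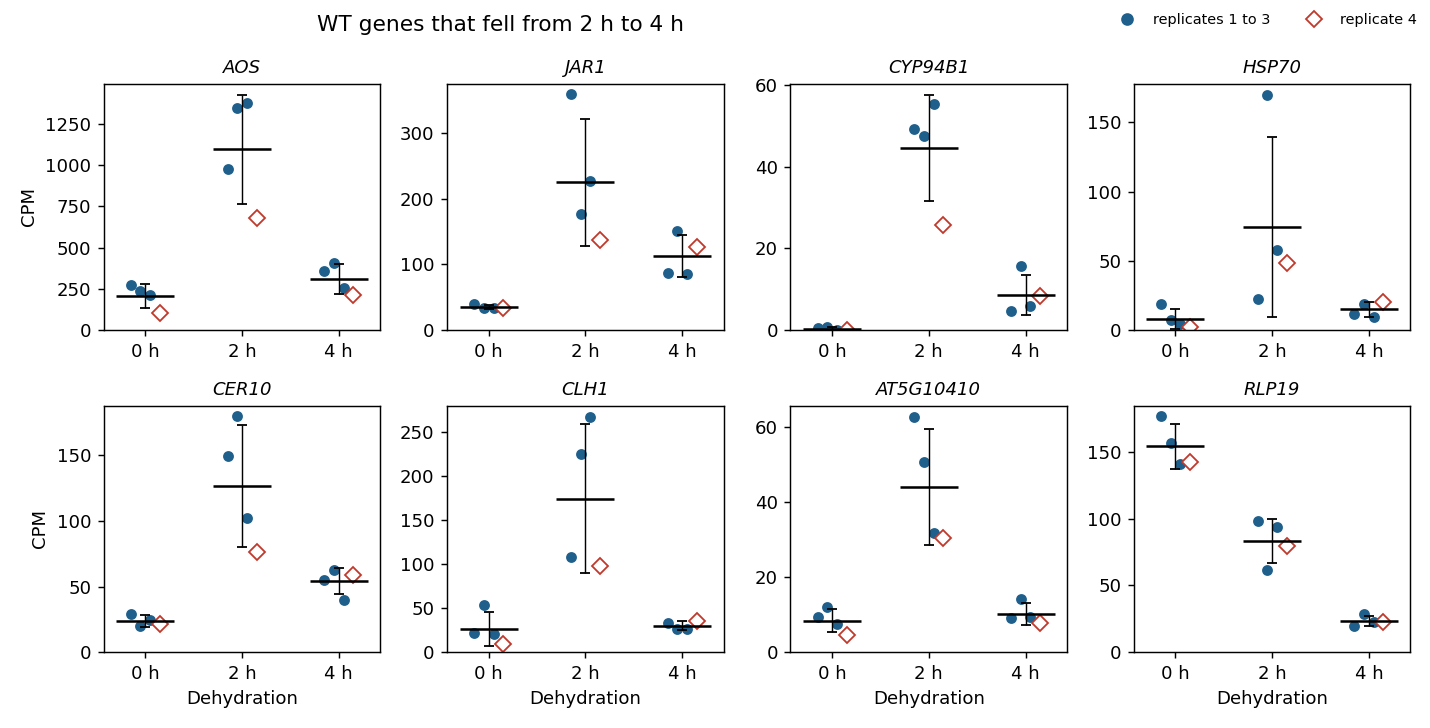
CPM (y axis, from 0) of 8 genes that fell from 2 h to 4 h, in WT libraries at 0 h, 2 h and 4 h of dehydration (x axis), with lines and bars for mean ± SD of 4 libraries and open diamonds for replicate 4. AOS and CER10 were lower in all 4 libraries at 4 h than in any at 2 h, while JAR1 had groups that overlapped.

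Wax and cutin genes included 3 that fell and 0 that rose of 31, against 2.12% of all genes that fell. With both replicate 4 libraries left out 8 fell, against 5.77% of all genes, when LACS2, KCR1, CYP86A2, ABCG11 and LTPG1 were added. CER10, an enoyl-CoA reductase of fatty acid elongation, was at 149, 179.6, 102 and 76.1 CPM at 2 h and 54.7, 62.7, 39.9 and 58.8 CPM at 4 h, and its groups did not overlap. Its log2 fold change was -1.23 ± 0.23 (SE) (edgeR adjusted p = 0.0041). CER2, which acts in the elongation of wax precursors, fell with a log2 fold change of -1.10 ± 0.30 (SE), and GPAT4, an acyltransferase of cutin synthesis, with -1.11 ± 0.32 (SE), whose groups overlapped. CER2 overlaps genes on the other strand. The list median was -0.08 and without both replicate 4 libraries -0.45.

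Of 21 tested heat shock factors and chaperones, which fold proteins under heat, HSP70 and HSP90.1 fell and HSFA6B rose, against 2.12% of all genes that fell and 2.57% that rose. Of the list, 10 of 21 had a log2 fold change above 0, and the median was -0.01, or 0.11 without both replicate 4 libraries. There 5 fell, against 5.77% of all genes, when HSFA2, HSC70-1 and ROF2 were added. HSP70 was at 22.8, 169, 57.8 and 48.7 CPM at 2 h and 11.6, 18.9, 9.52 and 20.5 CPM at 4 h, with the spread at 2 h set by replicate 2, and the groups did not overlap. Its log2 fold change was -2.30 ± 0.57 (SE) (edgeR adjusted p = 0.022), and HSP90.1 had -1.97 ± 0.54 (SE) with groups that overlapped. The abundant AT3G09440, an Hsp70 family gene, and HSP81-2 had -1.70 ± 0.42 log2 units (SE) and -1.60 ± 0.40 log2 units (SE), and the groups of HSP81-2 overlapped. The coding sequence of HSP81-2 is 94.2% and 95.5% identical to those of AT5G56000 and AT5G56010, so reads may be split between them.

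A few growth hormone genes fell, where 2.12% of all genes fell. Of 22 brassinosteroid and gibberellin genes 3 fell and 0 rose: GA20OX2, which makes gibberellin, at -3.24 ± 0.91 log2 units (SE), and the gibberellin receptors GID1A and GID1C at -0.72 ± 0.16 log2 units (SE) and -0.49 ± 0.12 log2 units (SE). GA20OX2 was low, at 2.26, 2.52, 1.07 and 6.57 CPM at 2 h and 0, 0.0644, 0.234 and 0.926 CPM at 4 h. Replicate 4 was its highest library at both times. The groups of GID1C overlapped. In the fit without both replicate 4 libraries 6 fell, against 5.77% of all genes, when the brassinosteroid synthesis genes DET2 and BR6OX2 and the gibberellin repressor RGA1 were added. GID1A was at 31.7, 25.4, 26.3 and 25.3 CPM at 2 h and 12.8, 16.6, 15.4 and 21.2 CPM at 4 h, without overlap. Of 14 PIF and PRE growth factors BEE1, PIL1 and HB-2 fell, at -1.42 ± 0.40 log2 units (SE), -1.24 ± 0.30 log2 units (SE) and -0.72 ± 0.20 log2 units (SE). The groups of BEE1 and PIL1 overlapped. Without both replicate 4 libraries BEE1 and HB-2 had edgeR adjusted p of 0.071 and 0.077, so 1 of the 14 fell there, against 5.77% of all genes. Of 15 Aux/IAA repressors, IAA1 and IAA5 rose, at 0.98 ± 0.27 log2 units (SE) and 2.49 ± 0.59 log2 units (SE), where 2.57% of all genes rose. IAA3 and IAA29 fell, at -0.93 ± 0.25 log2 units (SE) and -1.29 ± 0.35 log2 units (SE). Without both replicate 4 libraries IAA29 had an edgeR adjusted p of 0.11 and IAA17 was called higher. There 3 of the 15 rose and 1 fell, against 5.21% and 5.77% of all genes.

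Genes of other roles also fell. The counts of their lists are to be read against the 2.12% of all genes that fell, or 5.77% without both replicate 4 libraries. AT5G62360, annotated as an invertase or pectin methylesterase inhibitor, was at 43.1, 22, 24.8 and 41.2 CPM at 2 h and 0.957, 3.67, 0.467 and 4.15 CPM at 4 h. All its 4 h libraries were below all its 2 h libraries, and its log2 fold change was -3.81 ± 0.72 (SE) (edgeR adjusted p = 0.0041). CLH1, chlorophyllase 1, which removes the phytol tail of chlorophyll, was at 108, 225, 267 and 98.1 CPM at 2 h and 33.3, 26.0, 26.1 and 35.6 CPM at 4 h, without overlap, and fell with -2.53 ± 0.48 log2 units (SE). It was the 1 called of 16 chlorophyll breakdown and senescence genes. Without both replicate 4 libraries 3 others rose, NYE1 and NOL of chlorophyll breakdown and SWEET15, a sugar transporter of senescing leaves, where 5.21% of all genes rose. SWEET15 had a log2 fold change of 4.22 there (edgeR adjusted p = 0.0011) and 1.81 with all libraries (edgeR adjusted p = 0.19). AT5G10410, an ENTH domain family gene, was at 62.8, 50.8, 31.9 and 30.6 CPM at 2 h and 9.07, 14.3, 9.40 and 7.76 CPM at 4 h, and RLP19, a receptor-like protein, was at 97.8, 61.3, 93.9 and 79.5 CPM at 2 h and 19.5, 28.3, 22.3 and 22.9 CPM at 4 h. Both were below their 2 h libraries in all 4 libraries at 4 h, with -2.12 ± 0.30 log2 units (SE) and -1.84 ± 0.27 log2 units (SE). AT5G62280, AT1G52000, AT5G10410, AT1G21050, AT5G55620, RABA6b and RLP19 had log2 fold changes from -2.61 to -1.84, each with groups apart, which the rule that named them required. AFP2, ALDH12A1, IAA3, AT3G09440 and CT-BMY overlap genes on the other strand over 494 to 905 bases, where reads cannot be assigned without strand, and RABA6b overlaps a gene on its own strand over 468 bases. EP3, a chitinase, had -2.18 ± 0.47 log2 units (SE), but 1596 of its 2362 bases overlap another gene. CT-BMY, a chloroplast beta-amylase of starch breakdown and the 1 called of 20, had -1.05 ± 0.28 log2 units (SE), with BAM1 added as higher and DPE1 as lower without both replicate 4 libraries. CYP71B26, a cytochrome P450, had -1.25 ± 0.27 log2 units (SE) with groups that overlapped.

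Several lists had no called member with all libraries. Of 44 light harvesting and electron transport genes 0 were called, and their median log2 fold change was -0.41 with all libraries and -0.07 without both replicate 4 libraries. Salicylate genes (20), antioxidant enzymes (16), plasma membrane H+-ATPases (9) and guard cell markers (9) had 0 called in either fit. In other lists 0 were called with all libraries and some without both replicate 4 libraries, where 5.21% of all genes rose and 5.77% fell. Of 26 Calvin cycle and photorespiration genes 3 rose there. Of 20 stress NAC, HD-Zip and MYB factors NAC3 and RD26 rose, RD26 by a log2 fold change of 1.07 (edgeR adjusted p = 0.014). Of 14 WRKY factors WRKY54 and WRKY70 fell, of 23 glucosinolate genes MYB34 and SOT16, of 17 ethylene genes tested there (18 with all libraries) the receptor genes ETR1 and ERS1, and of 16 flavonoid and phenylpropanoid genes tested there (18 with all libraries) PAL1 and PAL2. Of 11 evening-phased clock genes PRR5 and ELF4 rose and PRR3 fell. Of 23 genes of amino acid breakdown and carbon starvation LKR rose and GDH1 fell. With all libraries 21 had a log2 fold change above 0, with a median of 0.66, where 10065 of all 18841 genes were above 0. The 11 tested 14-3-3 genes had log2 fold changes between -0.34 and 0.21, and 0 were called. Of 28 tested cell cycle genes 0 were called, with a median of 0.80 that turned to -0.40 without both replicate 4 libraries.

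**Figure D5:**
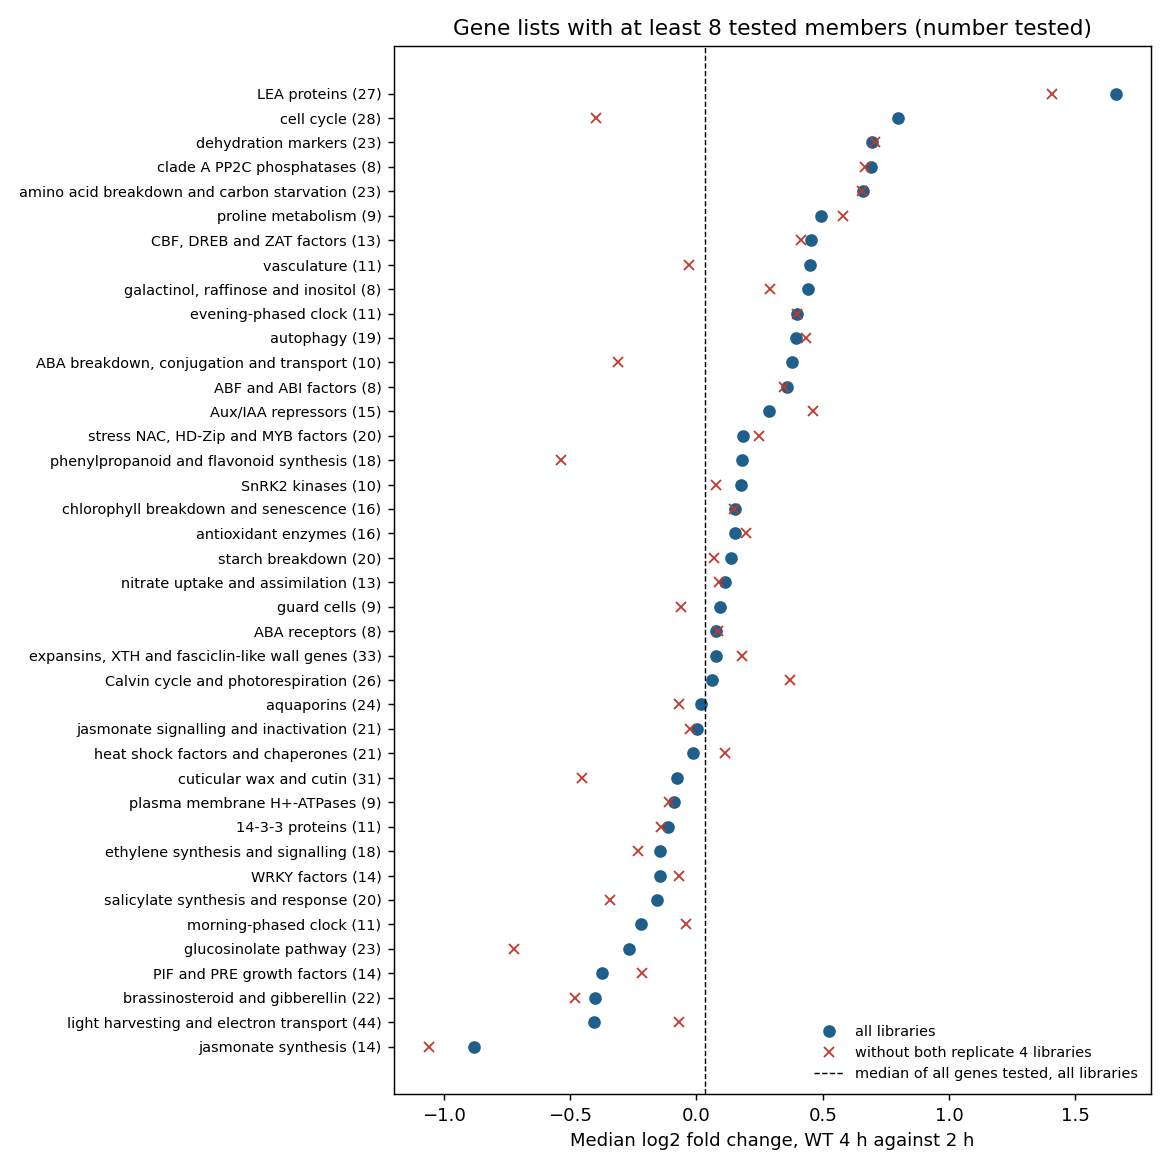
Median log2 fold change of WT 4 h against 2 h (x axis) of the gene lists with at least 8 tested members (y axis, number tested in brackets), with all libraries (dots) and without both replicate 4 libraries (crosses). LEA proteins lie highest at 1.66, jasmonate synthesis lowest at -0.88, and the cell cycle list moves from 0.80 to -0.40.

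The same step in grf6 grf8, measured in 8 other libraries, gave 1195 genes that rose (6.34%) and 1091 that fell (5.79%). Here too libraries differed in cell cycle transcripts, whose summed level at 4 h was 175 and 139.6 CPM in replicates 1 and 2 against 41.9 and 43.4 CPM in replicates 3 and 4. Of the 484 that rose in WT, 380 were also called higher there, which is 78.5% of the WT list and 31.8% of the mutant list. Of the 400 that fell, 286 were called lower there, which is 71.5% and 26.2%. The sign in grf6 grf8 was that of WT for 484 of 484 and 399 of 400 genes, while 55.3% of all genes had a log2 fold change above 0 there. Another fit left out the 5 libraries in which the mean log2 CPM of the cell cycle list was above 1, namely replicate 4 of WT at 2 h and 4 h, replicate 1 of grf6 grf8 at 0 h and replicates 1 and 2 of grf6 grf8 at 4 h. In that fit, with 18771 genes tested, 2122 rose (11.3%) and 1888 fell (10.1%) in WT, together 21.4%, and 3155 rose (16.8%) and 2706 fell (14.4%) in grf6 grf8. There 1740 genes rose in both, 82.0% of the WT list and 55.2% of the mutant list, and 1441 fell in both, 76.3% and 53.3%. A test of the difference between genotypes called 0 of 18841 genes in edgeR (0%), with 411 genes (2.18%) at an unadjusted p under 0.05. That is below the share of 0.05 that no difference would give on average. The 0 calls do not show that the genotypes responded alike. DESeq2 called 1 (0.00531%), AT4G08170, an inositol trisphosphate kinase family gene, which was named after its values were seen. In WT it was at 80.1, 98.6, 74.3 and 103.7 CPM at 2 h and 30.8, 35.4, 33.3 and 28.6 CPM at 4 h. In grf6 grf8 it was at 44.3, 32.3, 38.5 and 46.5 CPM at 2 h and 26.2, 36.3, 40.8 and 29.1 CPM at 4 h. The groups did not overlap in WT and did in grf6 grf8. The edgeR difference, grf6 grf8 minus WT, was 1.19 ± 0.23 (SE) on the log2 scale with an adjusted p of 0.67.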

How the data were processed

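Poly(A) RNA was sequenced from rosette leaves. The deposited files hold counts per gene, whole numbers that the authors did not scale to library size, and FPKM values computed by the authors, which served only as a check. Whether the counts are rounded expected counts, as RSEM gives, is not given in the sources used here. Per the submitters' processing notes, the programs were RSEM, HISAT2, edgeR, DESeq2, StringTie 1.3.1, fastp 0.18.0 and Bowtie2 2.2.8 with build TAIR10, in roles not given in the sources used here. Of 27664 genes, 26719 matched RefSeq TAIR10.1 and 248 carry assembly names. Total counts were 17.4 to 20.4 M at 2 h and 17.5 to 19.7 M at 4 h in WT.

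The tests used edgeR 4.0.16 (R 4.3.3): filterByExpr over 6 groups, TMM scaling, 1 negative binomial model over 24 libraries, and the quasi-likelihood test of WT 4 h against 2 h, two-sided, with Benjamini-Hochberg adjustment. Sharing the spread of 6 groups adds residual degrees of freedom. SE comes from the test statistic. The genotype difference was an interaction contrast.

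Genes are named by rule: nuclear, adjusted p under 0.05, at least 10 CPM in a group and groups apart, the 12 highest and 12 lowest; of those changed at least 2-fold, the 5 most abundant in each direction; and up to 4 members per list described with the smallest adjusted p. Called list members beyond these were chosen after their values were seen. The comparison, its groups and the lists, 805 loci in 48 lists, were chosen with earlier results of these data known. Alternatives were DESeq2 1.42.0, DESeq2 size factors, no filter, a stricter filter (a mean of 5 CPM or more, and over 1 CPM in 4 libraries), a replicate block, the cell cycle score as covariate, subsets of libraries and a 2-fold minimum.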

Additional observations from a re-analysis of the deposited data

Results flagged for a closer look

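In WT at 2 h and 4 h, 170 sets of 4 values were examined for 1 library far from the other 3, of which chance gives about 1 in 20, and 13 stood out. Replicate 4 at 4 h gave 8 of them. Its cell cycle score, the mean log2 CPM of the list, was 2.33, against -0.58 to -0.22 in the others. It was low for P5CS1 (2191 CPM), UBC32 (368 CPM) and MAPKKK17 (17.9 CPM), and high for AT1G52000 (89.2 CPM), HSP81-2 (171 CPM), ABI5 (49.2 CPM) and EXPA1 (94.2 CPM). At 2 h, replicate 3 was low for ECP63 (0.225 CPM) and HB-2 (178 CPM) and high for NRT1.5 (19.6 CPM), replicate 1 was high for GID1A (31.7 CPM), and replicate 4 was low for XERO1 (0.0487 CPM).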

How the results depend on the processing

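The counts of genes that rose and fell, 484 and 400, were 917 and 746 by the DESeq2 Wald test, 1834 and 1794 with a covariate for cell cycle score, and 982 and 1088 without both replicate 4 libraries. They were 2122 and 1888 without the 5 libraries rich in cell division transcripts, 872 and 1077 with only WT 2 h and 4 h replicates 1 to 3, 19 and 18 with only the groups compared, and 260 and 150 with a 2-fold minimum. Leaving out 1 library gave 196 to 1625 and 192 to 1830. The rises moved over 1.5 times without 2 h replicate 1 (317), replicate 2 (213) or replicate 4 (293), and without 4 h replicate 1 (196), replicate 2 (269), replicate 3 (293) or replicate 4 (1625). The falls did so without 2 h replicate 2 (210) and 4 h replicate 1 (192), replicate 3 (245) or replicate 4 (1830). The cause was not tested. The difference between genotypes had 1 gene with DESeq2 and 0 in every other fit, 0 to 0 when leaving out 1 library. The 84 genes examined were chosen among those called with all libraries. The alternatives reuse the same libraries, so reversed signs were unlikely from the start. Of the 84, 10 were not tested under the stricter filter. With only the groups compared in the fit, 71 of the 84 lost their call and 13 kept it. In the fits in which each was tested 0 reversed sign, and 11 were tested and called in all of them: AT2G37870, AT3G17520, AT5G10410, AT5G50360, AT5G55620, CLH1, EP3, LEA18, LTP4, RLP19 and SUS3. Same-numbered libraries correlated at 0.12, 0.09, 0.39 and 0.63 in their deviations and others at -0.45 to 0.36, and 2 of 4 libraries at either time correlated best with their own number. As 1 pair was under 0.1, the numbers were not taken to pair samples. These correlations do not settle whether they do, so the counts with a replicate block are also given. With the replicate block 395 genes rose and 305 fell, and 18 of the 84 lost their call: AT2G02700, AT1G52000, NSP5, SNRK2.3, ABF1, ABF2, ABI5, DI21, CER2, GPAT4, JAZ7, TCH4, IAA1, IAA3, IAA29, GA20OX2, BEE1 and HB-2.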
